A study of Mus musculus with 11 samples.

Results

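The lysosome is the acid compartment in which cells break down protein, lipid and sugar chains, and this set of 41 genes covers its luminal hydrolases and their activators (19 genes), 7 proteins of its membrane, the 14 subunits and accessory proteins of the V-ATPase proton pump that acidifies it, and Tfeb, a transcription factor of lysosomal genes. The members are named by gene symbol and grouped here by function, the set having been drawn up with earlier results of these data known, so its shares of called genes are descriptions. All 41 were found among the 39017 genes of the count table and passed the filter on low counts in both tissues. Hydrolases reach the lysosome as inactive precursors and work at low pH, so the enzymes and the pump serve the same organelle. In brain the pump has a further use, since it also energises the loading of transmitter into synaptic vesicles, while several of the cathepsins are best known from microglia, the resident macrophages.

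RNA was sequenced from the hippocampal CA1 region and the neocortex of knockout (KO) mice, which carried Camk2a-Cre with Dicer flox/flox, and of control mice, whose alleles the labels do not spell out. Camk2a-Cre acts in forebrain excitatory neurons, so glia and interneurons of the KO mice are outside its usual range, and Dicer is the RNase that cuts miRNA precursors. The CA1 gave 2 KO libraries (animals D5130 and D5133) and 3 control libraries (the males D5134 and D5135 and the female D5138), and the neocortex gave 3 KO libraries (D5130, D5132 and D5133) and 3 control libraries (D5129, D5134 and D5135), all from males like the KO animals of CA1; every mouse was 13 to 14 weeks old and each library came from a single named animal. A CA1 library held 24806581 to 35684618 gene counts and a neocortex library 43144097 to 58329441. Levels are given as CPM, a gene's counts scaled to a common library total. In CA1, Dicer1 had 73.3 and 71.6 CPM in KO libraries, against 74.0, 68.7 and 75.2 CPM in control libraries (adjusted p = 0.988, edgeR). In neocortex it had 63.3, 59.0 and 60.5 CPM in KO libraries, against 66.5, 59.3 and 62.4 CPM in control libraries (adjusted p = 0.797, edgeR). The count runs over the whole gene in all cells of the tissue and does not separate the floxed part, so it checks no label. In control libraries the 4 marker genes of CA1 pyramidal neurons summed to 462.3 to 509.5 CPM in CA1 and 215.7 to 246.8 CPM in neocortex, so the tissues differ in the direction of their labels.

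Many lysosomal genes carry near their start the palindrome CACGTG, an E-box, or its longer form TCACGTGA, both of which are contained in the element that TFEB and its relatives bind. Both strings were looked for in the RefSeq window from 250 bases before to 50 bases after each gene's start (GRCm38.p6), in which 35 of the 41 members had an entry; being palindromes, both read the same on either strand, and the longer string always counts as the shorter as well. The shorter string was present for 11 of the 35 members (31.4%), against 2187 of 27025 genes (8.09%), and the longer for 6 of the 35 (17.1%), against 304 of 27025 genes (1.12%). The 5 windows below are shown because they cover lumen, membrane and pump and set a member that rose in the KO tissues without either string (Ctss) beside others that hold it; capitals mark the strings. Ctsd, Ctsa and Ctss are proteases of the lumen, Lamp1 is a major protein of the membrane, and Atp6v0d1 is a pump subunit.
Ctsd, chr7:142387778-142388077, minus strand: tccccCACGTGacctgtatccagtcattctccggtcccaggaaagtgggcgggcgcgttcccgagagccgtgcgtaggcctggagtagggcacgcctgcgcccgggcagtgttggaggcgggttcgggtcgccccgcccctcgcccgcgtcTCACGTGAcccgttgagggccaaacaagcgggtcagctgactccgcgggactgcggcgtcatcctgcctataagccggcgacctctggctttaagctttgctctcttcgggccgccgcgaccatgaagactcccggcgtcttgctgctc
Ctsa, chr2:164833523-164833822, plus strand: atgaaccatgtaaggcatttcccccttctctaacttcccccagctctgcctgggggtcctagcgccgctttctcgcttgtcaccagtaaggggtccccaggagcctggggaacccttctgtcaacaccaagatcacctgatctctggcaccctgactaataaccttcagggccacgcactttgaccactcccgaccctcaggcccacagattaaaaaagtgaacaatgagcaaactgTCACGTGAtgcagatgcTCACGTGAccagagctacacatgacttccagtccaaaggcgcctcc
Lamp1, chr8:13158911-13159210, plus strand: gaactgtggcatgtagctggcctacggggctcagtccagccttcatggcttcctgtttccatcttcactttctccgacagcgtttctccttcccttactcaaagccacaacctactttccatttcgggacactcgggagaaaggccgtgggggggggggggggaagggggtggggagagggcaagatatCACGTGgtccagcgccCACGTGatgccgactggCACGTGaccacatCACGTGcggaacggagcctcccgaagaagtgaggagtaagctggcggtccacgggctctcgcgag
Atp6v0d1, chr8:105566015-105566314, minus strand: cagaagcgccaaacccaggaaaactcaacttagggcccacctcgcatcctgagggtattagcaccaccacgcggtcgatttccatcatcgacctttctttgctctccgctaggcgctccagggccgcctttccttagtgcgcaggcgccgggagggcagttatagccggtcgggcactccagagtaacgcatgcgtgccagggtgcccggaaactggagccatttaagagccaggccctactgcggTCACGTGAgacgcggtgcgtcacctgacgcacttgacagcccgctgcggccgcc
Ctss, chr3:95526536-95526835, plus strand: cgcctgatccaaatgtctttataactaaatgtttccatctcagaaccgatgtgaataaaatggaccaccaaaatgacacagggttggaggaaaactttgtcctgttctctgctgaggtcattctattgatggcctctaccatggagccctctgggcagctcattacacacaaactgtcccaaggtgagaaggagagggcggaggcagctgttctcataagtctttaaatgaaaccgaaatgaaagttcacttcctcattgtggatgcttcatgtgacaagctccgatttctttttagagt

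The Ctsd window holds CACGTG 2 times, once within TCACGTGA, the Ctsa window holds TCACGTGA 2 times, the Lamp1 window holds CACGTG 4 times, and the Atp6v0d1 window holds TCACGTGA 1 time. The other members with CACGTG were Ctsf, Ctsl, Gla, Lgmn, Mcoln1, Atp6v0b and Atp6v1a. By role the string was found for 6 of 17 luminal members (35.3%), 2 of 6 membrane members (33.3%) and 3 of 11 pump members (27.3%). A match describes these letters only and is not evidence that a factor binds there.

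The KO label refers to the enzyme that makes miRNAs, and the 3′ UTRs of the members were also read for 8mer sites of 8 miRNA families that are abundant in brain (let-7, miR-9, miR-22, miR-26, miR-29, miR-125, miR-128 and miR-138). An 8mer site is the reverse complement of the seed, bases 2 to 8 of the miRNA, followed by an A. At least 1 such site was present in the longest annotated 3′ UTR of 9 of the 41 members (22.0%), against 4954 of 21013 genes (23.6%), so the members held sites about as often as other genes. The members with a site were Npc2 (let-7 and miR-128), Gla and Atp6v0a1 (let-7), Atp6v1g2 (miR-125 and miR-128), Atp6v1d (miR-29 and miR-138), Tfeb (miR-29), Ctsl (miR-26), Ctsc (miR-22) and Npc1 (miR-138). The sites of the members that passed a test below and whose site lay inside the counted gene are printed under their miRNAs, with the seed or the site in capitals; the Ctsc site belongs to a transcript that ends inside the gene.
mmu-let-7a-5p: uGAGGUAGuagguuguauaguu
Npc2 site of let-7, GRCm38 chr12:84755602-84755631, minus strand: gcctcctgcttCTACCTCAagtgctgagat
mmu-miR-128-3p: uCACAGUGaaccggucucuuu
Npc2 site of miR-128, GRCm38 chr12:84756749-84756778, minus strand: ggctatggatcCACTGTGAaggatggcttc
Atp6v1g2 site of miR-128, GRCm38 chr17:35238430-35238459, plus strand: ctttgttcagcCACTGTGAcactagtaacc
mmu-miR-125b-5p: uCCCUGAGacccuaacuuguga
Atp6v1g2 site of miR-125, GRCm38 chr17:35237799-35237825, plus strand: aaccatcgCTCAGGGAcacatccctag
mmu-miR-22-3p: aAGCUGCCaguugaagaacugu
Ctsc site of miR-22, GRCm38 chr7:88288749-88288778, plus strand: gcagaggccatGGCAGCTAcaatcccttct

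Compared per length, the pump was the more abundant machinery. Counts were divided by the summed exon length of each gene (RPKM, which is CPM per kilobase), and in CA1 the median pump member had 80.6 RPKM in KO and 84.1 RPKM in control libraries, while the median luminal member had 23.3 RPKM in KO and 16.1 RPKM in control libraries. The order of levels ran from Psap, the precursor of the saposins that present lipids to hydrolases, with 637 ± 12.04 RPKM in KO CA1 (SD, n = 2) and 593 ± 13.0 RPKM in control CA1 (SD, n = 3), to Tfeb with 0.910 ± 0.0547 RPKM in KO CA1 and 0.961 ± 0.150 RPKM in control CA1. Below Psap came Atp6v1g2 and Ctsd. In control CA1, Atp6v1g2 (186 ± 8.79 RPKM) stood above Ctsd (127 ± 3.69 RPKM), and in KO CA1 the order of their means was turned, with 174 ± 11.7 RPKM for Atp6v1g2 and 186 ± 11.1 RPKM for Ctsd, values whose SDs overlap. The low end was held by Ctsh and Ctsc, at 1.98 ± 0.487 and 2.68 ± 0.422 RPKM in KO CA1 and at 1.12 ± 0.0757 and 1.70 ± 0.0228 RPKM in control CA1.

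**Figure D1:**
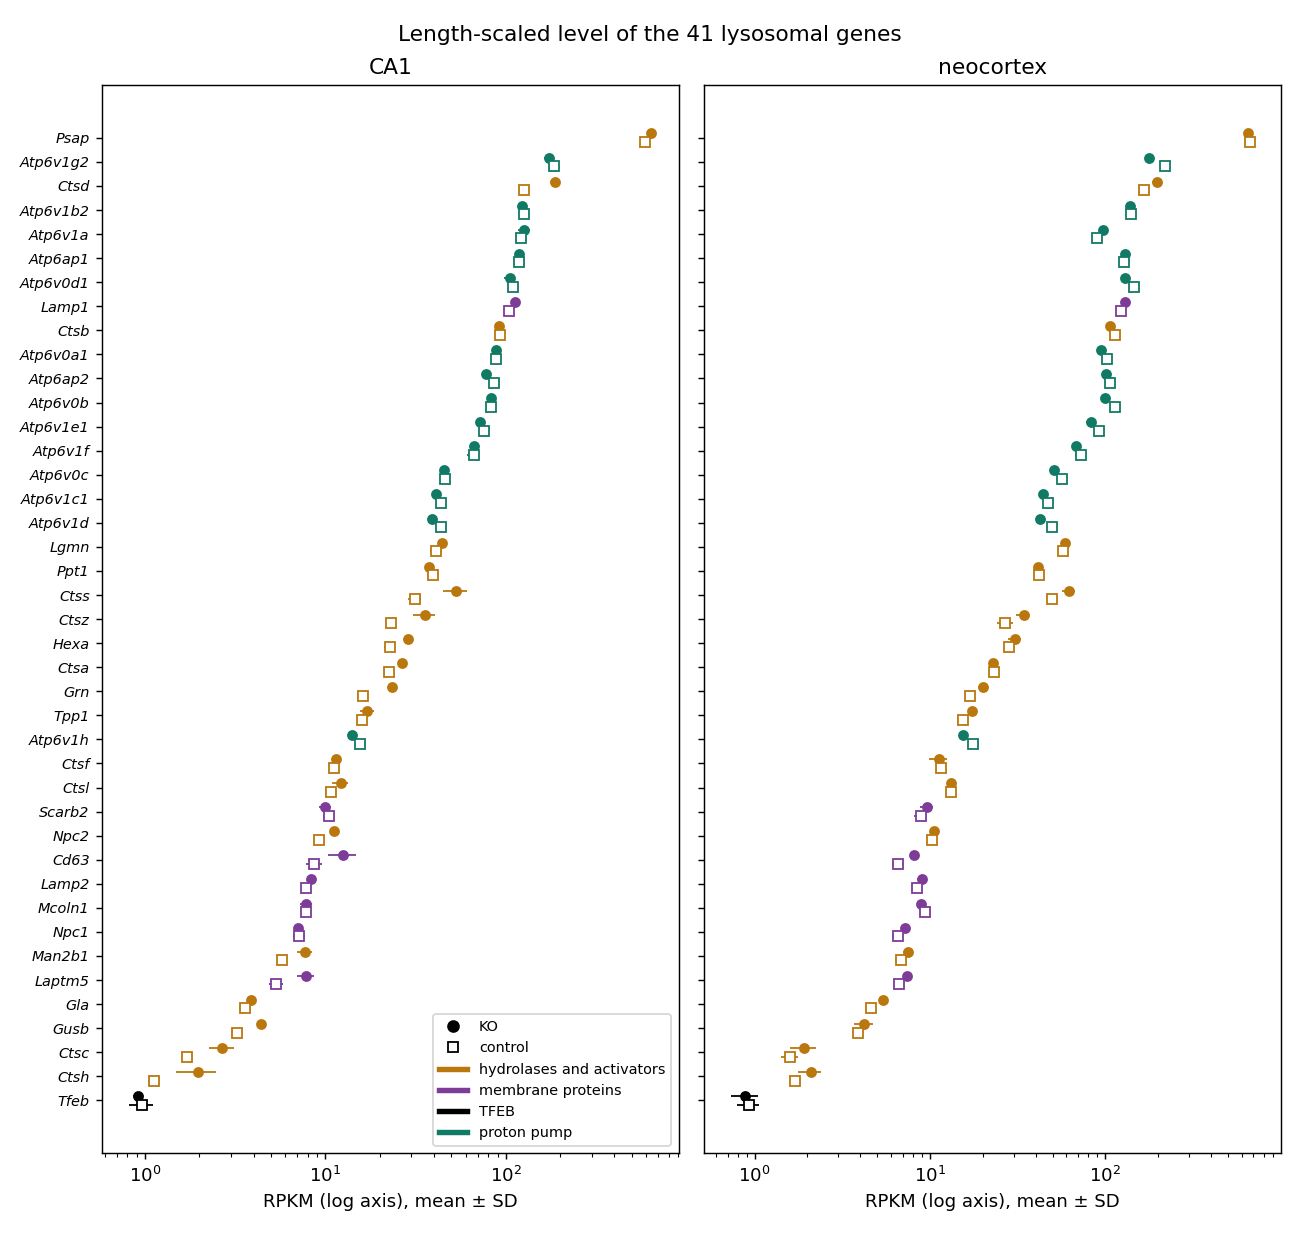
Level of each of the 41 genes per length (RPKM, log axis) in CA1 (left) and neocortex (right); filled circles are KO means, open squares control means, bars the SD over 2 or 3 libraries, and colour gives the role. Genes are ordered by control CA1: Psap is highest at 593 RPKM and Tfeb lowest at 0.961 RPKM, and pump members crowd the upper part.

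In CA1, 13 of the 26 luminal and membrane members were higher in KO mice and no pump member was; of 33 tested hydrolases and activators outside the set, 2 rose, with a median log2 fold change of 0.089. Among the 19 luminal members 11 rose and none fell, among the 7 membrane members 2 rose (Laptm5 and Cd63), and among the 14 pump members none passed the test in either direction (edgeR quasi-likelihood F-test, Benjamini-Hochberg adjusted p under 0.05 over all genes tested; 3 pump members had an unadjusted p under 0.05, and DESeq2 called none). Over all 18274 genes tested 2.47% rose, 1.41% fell and 17.3% had an unadjusted p under 0.05. Every KO library lay above every control library for 14 luminal, 4 membrane and 0 pump members, against 17.4% of all genes, and every KO library lay below for 0, 0 and 6, against 16.3% of all genes. The median log2 fold change was 0.28 over the luminal members, 0.089 over the membrane members, -0.045 over the pump members and 0 over all genes tested.

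The aspartic protease cathepsin D and the cysteine protease cathepsin S were among the clearest. Ctsd (chr7:142371148-142387819, GRCm38, minus strand) had 419.9 and 456.7 CPM in KO CA1, against 299.6, 288.8 and 306.0 CPM in control CA1. The KO libraries were both high and far from the controls (log2 fold change 0.56, SE 0.057, adjusted p = 0.000139, edgeR). Ctss (chr3:95526786-95556403, plus strand) had 64.4 and 79.9 CPM in KO CA1, against 38.8, 45.5 and 43.1 CPM in control CA1. D5133 was the higher of the KO animals and the groups did not overlap (log2 fold change 0.76, SE 0.095, adjusted p = 0.000929, edgeR). Cathepsin Z, a carboxypeptidase, followed: Ctsz (chr2:174427493-174439039, minus strand) had 46.3 and 56.0 CPM in KO CA1, against 33.3, 31.4 and 35.4 CPM in control CA1 (log2 fold change 0.61, SE 0.093, adjusted p = 0.00241, edgeR).

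Further cathepsins that trim peptides from their amino end rose from a low level. Ctsc, dipeptidyl peptidase 1, had 13.8 and 17.3 CPM in KO CA1, against 10.0, 9.82 and 9.78 CPM in control CA1 (log2 fold change 0.65, SE 0.13, adjusted p = 0.0110, edgeR). Ctsh, an aminopeptidase, had 7.33 and 10.4 CPM in KO CA1, against 5.07, 5.34 and 4.66 CPM in control CA1 (log2 fold change 0.81, SE 0.17, adjusted p = 0.0165, edgeR). In both genes the KO animals differed from each other more than the controls did, with D5133 on top. With Ctsa, the serine carboxypeptidase that also shields other hydrolases (log2 fold change 0.23, adjusted p = 0.0499), 6 of 9 cathepsins rose. The other 3 did not pass: Ctsl with a log2 fold change of 0.18, Ctsf with 0.037 and Ctsb, the cathepsin with the most reads, with -0.012. Ctsb had 562.4 and 546.6 CPM in KO CA1, against 554.1, 549.8 and 573.2 CPM in control CA1, so the groups overlapped.

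Among the other luminal enzymes, those that strip sugars were the ones to move. Man2b1, the lysosomal alpha-mannosidase, had 57.7 and 65.8 CPM in KO CA1, against 49.0, 46.3 and 44.0 CPM in control CA1 (log2 fold change 0.41, SE 0.079, adjusted p = 0.0109, edgeR). Hexa, the alpha chain of the hexosaminidase that degrades GM2 ganglioside, had 56.8 and 57.2 CPM in KO CA1, against 47.6, 41.5 and 46.9 CPM in control CA1 (log2 fold change 0.33, SE 0.078, adjusted p = 0.0311, edgeR). Gusb, the beta-glucuronidase, also rose (log2 fold change 0.43, adjusted p = 0.0327). The alpha-galactosidase Gla, the asparaginyl endopeptidase Lgmn, the tripeptidyl peptidase Tpp1 and the palmitoyl thioesterase Ppt1 did not pass, with log2 fold changes between -0.078 and 0.11. Because the CA1 kit does not keep strand, reads of a gene on the opposite strand that shares exon bases count too: for Ctsa these are Pltp, over 10.5% of its exon bases and at 48.8 CPM on average, and Neurl2, over 6.87% and at 4.81 CPM, and for Hexa it is Tmem202, over 12.8% and at 1.03 CPM. On the same strand, Ctsd shares 34.4% of its exon bases with the predicted gene Gm49369, which is not among the counted genes. How the counting treated those reads is not given in the sources used here. The part of these genes in the Ctsa, Hexa and Ctsd values was not tested.

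Luminal proteins that are not enzymes rose too. Grn (chr11:102430315-102437048, plus strand), which encodes progranulin, a precursor that is cut into granulins inside the lysosome, had 79.4 and 82.2 CPM in KO CA1, against 57.3, 53.7 and 57.1 CPM in control CA1 (log2 fold change 0.53, SE 0.067, adjusted p = 0.000760, edgeR). Npc2, which carries cholesterol to NPC1 in the membrane, had a log2 fold change of 0.28 (adjusted p = 0.0364), while its partner Npc1 had -0.019 (adjusted p = 0.939) and did not pass. Psap, the most abundant member, had 1723 and 1770 CPM in KO CA1, against 1624, 1591 and 1662 CPM in control CA1. The groups did not overlap, but the difference did not pass (log2 fold change 0.10, SE 0.049, adjusted p = 0.294, edgeR).

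In the membrane the difference lay in Laptm5 and Cd63 and not in the major structural proteins. Laptm5 (chr4:130913125-130935078, plus strand), a lysosomal membrane protein of blood-lineage cells, had 27.2 and 31.8 CPM in KO CA1, against 18.4, 20.3 and 22.0 CPM in control CA1 (log2 fold change 0.54, SE 0.10, adjusted p = 0.0104, edgeR). Cd63 (chr10:128908919-128912816, plus strand), a tetraspanin of late endosomes and lysosomes, had 40.4 and 51.7 CPM in KO CA1, against 28.9, 31.7 and 35.3 CPM in control CA1 (log2 fold change 0.52, SE 0.11, adjusted p = 0.0216, edgeR). Lamp1 and Lamp2, which line the membrane, had log2 fold changes of 0.098 and 0.089 and did not pass, although each KO library lay above each control library. The cation channel Mcoln1 (0.001), the cholesterol exporter Npc1 and Scarb2 (-0.062), which brings glucocerebrosidase to the lysosome, overlapped between groups, as did Tfeb itself (log2 fold change -0.084, SE 0.17, adjusted p = 0.872).

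The pump in CA1 stood slightly below its control level, with no member passing. Of its 14 members 11 had a log2 fold change below 0 and 3 above. Every KO library lay below every control library for 6 of them, against 16.3% of all genes. The subunit with the smallest p was Atp6v1d (chr12:78842989-78861638, minus strand), part of the central stalk that turns inside the pump, with 179.8 and 180.6 CPM in KO CA1, against 203.2, 195.2 and 202.7 CPM in control CA1. Both KO libraries were low, yet the difference did not pass (log2 fold change -0.15, SE 0.057, adjusted p = 0.170, edgeR). The log2 fold changes of the 14 pump members ran from -0.15 to 0.045 with SEs of 0.050 to 0.075. The 4 subunits of the membrane part V0, which forms the proton path, lay between -0.054 and 0.012. The V1 subunits Atp6v1a and Atp6v1b2 had 0.045 and -0.035. Lower values belonged to Atp6v1h (-0.136), Atp6v1c1 (-0.104) and the accessory protein Atp6ap2 (-0.136), each with both KO libraries below all control libraries.

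**Figure D2:**
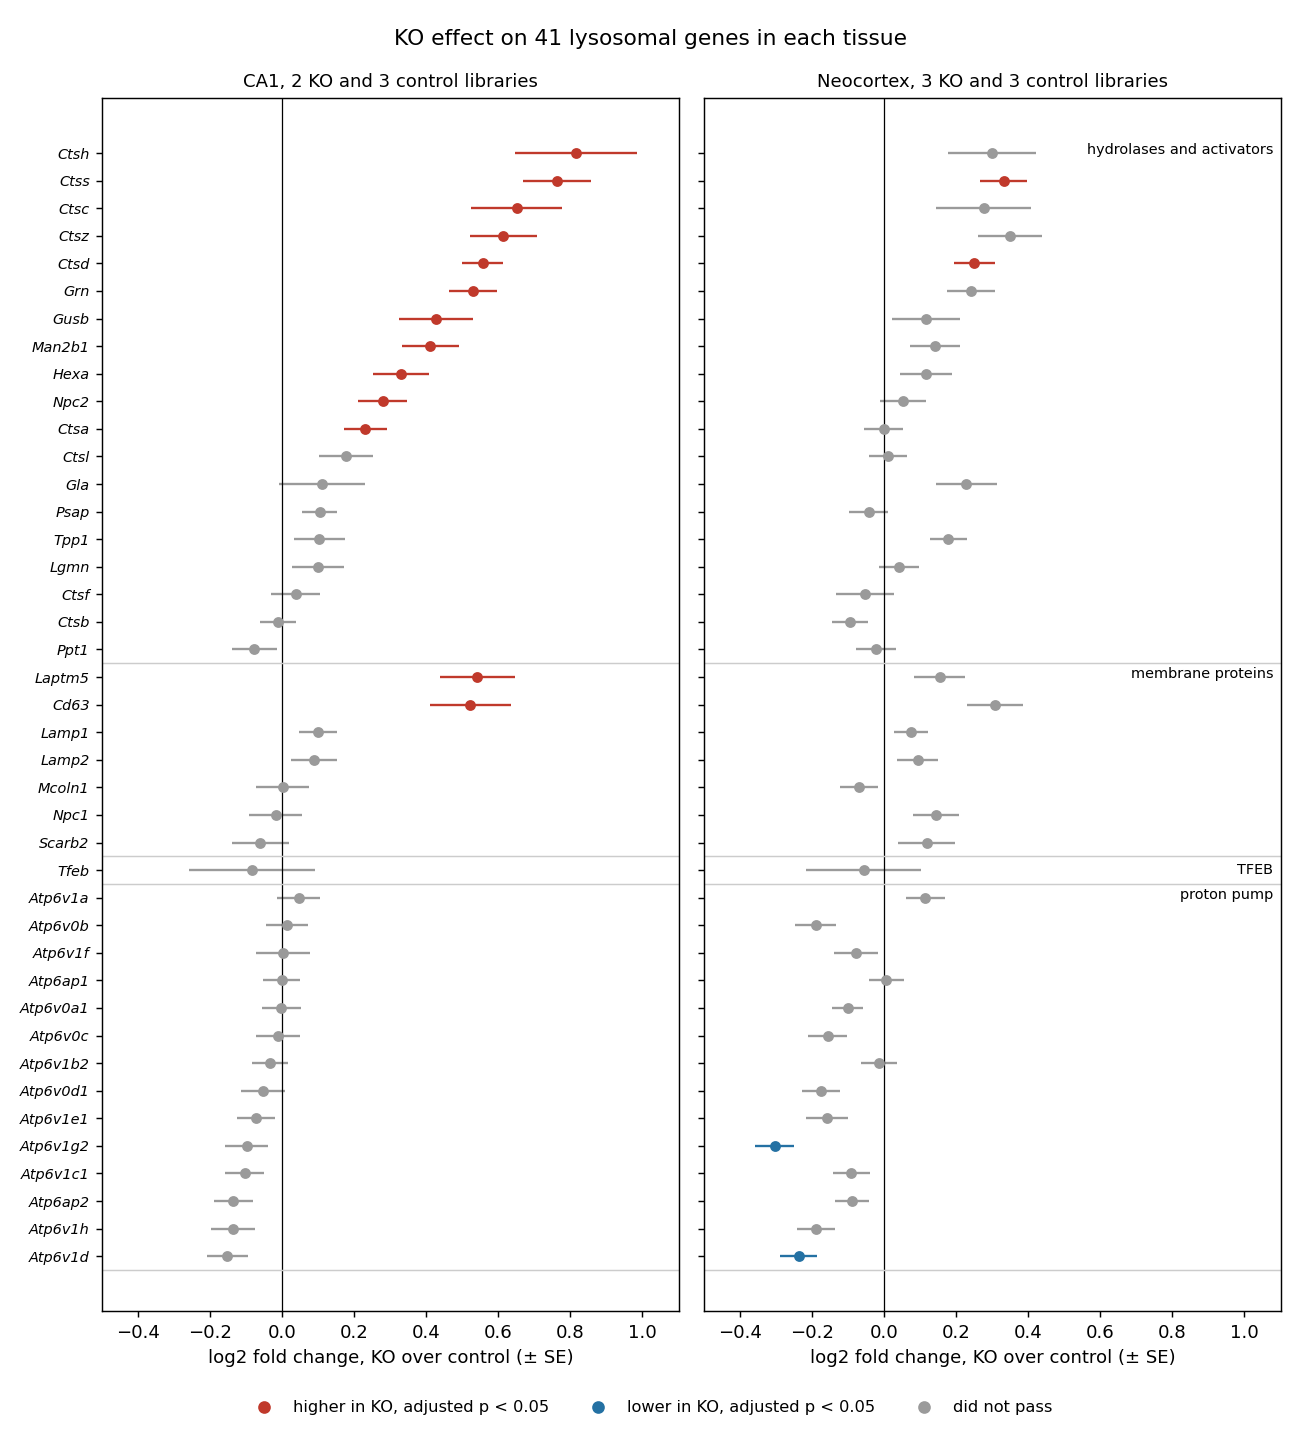
Log2 fold change of KO over control (point) with its SE (bar) for the 41 genes in CA1 (left) and neocortex (right), grouped by role from top to bottom; red is higher and blue lower in KO at an adjusted p under 0.05, grey did not pass. In CA1 the 13 red points are 11 luminal and 2 membrane genes, and the pump lies between -0.153 and 0.045. In neocortex 2 luminal genes are red and 2 pump subunits blue.

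The number of CA1 calls depended on single animals. All 13 members stayed higher in KO whichever library was left out. Their KO libraries all lay above their control libraries, so this direction could hardly change and is no further support. Ctsa and Npc2 lost their call whichever control library was left out. Without the KO animal D5133, 3 of the 13 were still called (Ctsd, Grn and Ctss), without the female control D5138 6 were, and without the control D5135 8 were.

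In neocortex cathepsins D and S were higher in KO mice as well, and 2 pump subunits were lower. Among the 19 luminal members 2 rose (Ctss and Ctsd) and none fell, none of the 7 membrane members passed (3 had an unadjusted p under 0.05, and DESeq2 called 1 of them higher, Cd63), and among the 14 pump members 2 fell (Atp6v1g2 and Atp6v1d) and none rose. Over all 16971 genes tested 1.51% rose, 1.2% fell and 18% had an unadjusted p under 0.05. Every KO library lay above every control library for 7 luminal, 3 membrane and 0 pump members, against 11.6% of all genes, and every KO library lay below for 1, 1 and 8, against 12.4% of all genes. The median log2 fold change was 0.12 over the luminal members, 0.12 over the membrane members, -0.13 over the pump members and 0.002 over all genes tested. The luminal median was 0.055 without the KO animal D5132 and 0.18 without the KO animal D5130.

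Ctss had 80.7, 79.6 and 92.8 CPM in KO neocortex, against 67.7, 67.7 and 65.9 CPM in control neocortex (log2 fold change 0.33, SE 0.066, adjusted p = 0.0234, edgeR). D5133 was the highest of the KO animals, as in CA1. Ctsd had 435.6, 488.6 and 464.2 CPM in KO neocortex, against 380.2, 412.8 and 375.3 CPM in control neocortex (log2 fold change 0.25, SE 0.057, adjusted p = 0.0395, edgeR). Its groups did not overlap either. Members just short of the threshold were Cd63 (log2 fold change 0.31, adjusted p = 0.0573), Ctsz (0.35, adjusted p = 0.0577), Grn (0.24, adjusted p = 0.0757) and Tpp1 (0.18, adjusted p = 0.0927). Of the genes that rose in CA1, Ctsa (-0.002), Npc2 (0.051), Hexa (0.12) and Gusb (0.12) had neocortex log2 fold changes near 0 that did not pass. Ctsb, the single luminal member with all KO libraries below the controls, had 644.7, 637.4 and 639.8 CPM in KO neocortex, against 672.7, 725.7 and 656.3 CPM in control neocortex (log2 fold change -0.096, adjusted p = 0.341, edgeR).

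The pump subunit with the clearest fall was Atp6v1g2 (chr17:35233660-35238767, GRCm38, plus strand), the isoform of the stator subunit G that is enriched in neurons. It had 460.3, 460.6 and 416.3 CPM in KO neocortex, against 538.6, 570.4 and 542.7 CPM in control neocortex (log2 fold change -0.30, SE 0.053, adjusted p = 0.0133, edgeR). All KO libraries were lower than all control libraries, and D5133 was the lowest. Atp6v1d had 197.8, 197.4 and 189.5 CPM in KO neocortex, against 224.3, 242.1 and 223.4 CPM in control neocortex (log2 fold change -0.24, SE 0.051, adjusted p = 0.0304, edgeR). Its groups were separate as well, and the KO libraries lay close together. All 4 V0 subunits had every KO library below every control library, with log2 fold changes of -0.19 to -0.10 and unadjusted p under 0.05, but none of them passed. Atp6v1a, which carries the ATP-splitting site, went the other way without passing: it had 609.9, 551.6 and 602.9 CPM in KO neocortex, against 560.9, 516.5 and 552.4 CPM in control neocortex (log2 fold change 0.11, adjusted p = 0.296, edgeR).

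**Figure D3:**
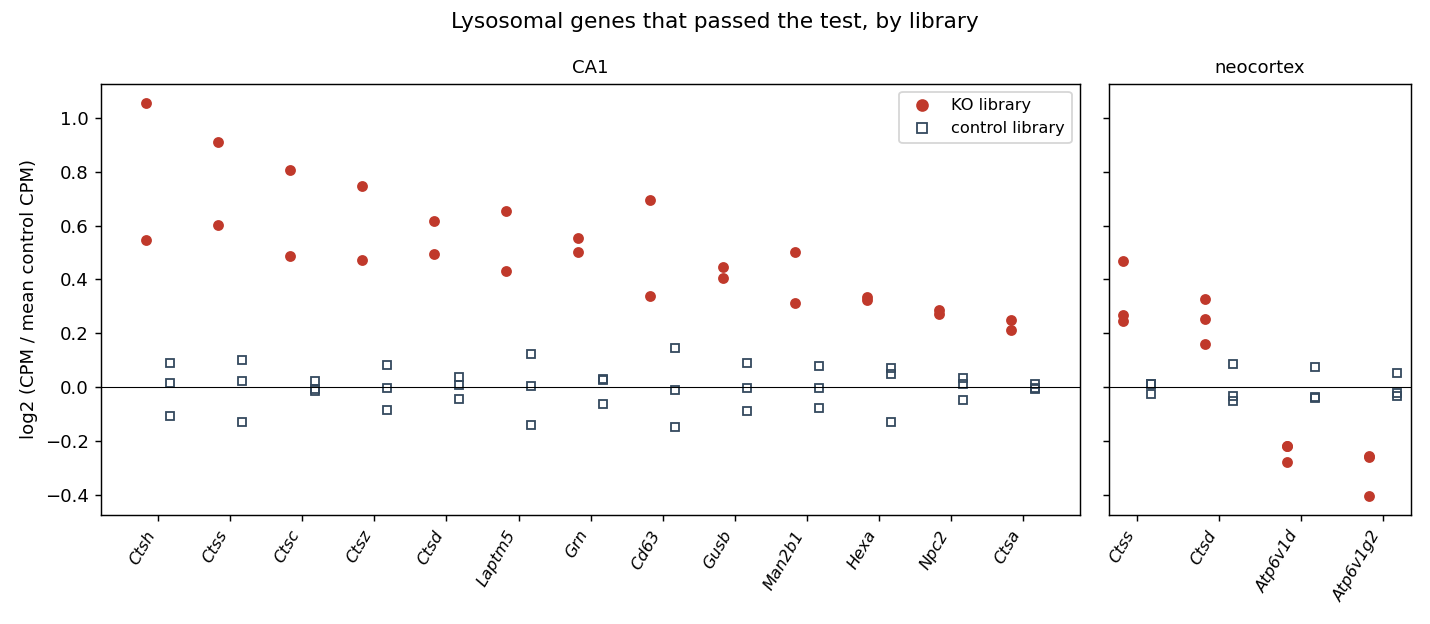
Each library's CPM relative to the mean control CPM of its tissue (log2 scale) for the members that passed the test, 13 in CA1 (left) and 4 in neocortex (right); red circles are KO libraries and open squares control libraries. In each gene shown the KO libraries lie wholly above or wholly below the controls, and in CA1 the spread between the 2 KO animals is widest for Ctsh.

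The neocortex calls depended on the tool, on single animals and on the spike-in sets. DESeq2 called 6 members higher (Ctsz, Grn, Tpp1 and Cd63 besides Ctss and Ctsd) and 3 lower (Atp6v1h besides the other 2). Over all genes DESeq2 called 481 higher and 432 lower, against 256 and 204 in the main fit. Leaving out D5133 ended all 4 calls, leaving out D5129 left 1 of 4 and leaving out D5132 left 2 of 4. Calls over all genes shrank in the same fits. They were 16 higher and 3 lower without D5133, 133 and 74 without D5129, and 100 and 44 without D5132. All 4 members kept their direction in each case, which their non-overlapping groups made nearly certain. The ERCC spike-in RNAs split the neocortex libraries into a set of D5130 and D5132 (KO) with D5129 (control) and a set of D5133 (KO) with D5134 and D5135 (control). Within the first set the log2 fold changes were 0.24 for Ctss, 0.28 for Ctsd, -0.23 for Atp6v1g2 and -0.18 for Atp6v1d, and within the second 0.48, 0.24, -0.41 and -0.29 in the same order; none passed within a set. The signs within each set also follow from groups that do not overlap. With the set as a batch term Ctss (0.36) and Atp6v1g2 (-0.32) were still called, while Ctsd (0.26, adjusted p = 0.0892) and Atp6v1d (-0.24, adjusted p = 0.0882) were not. Scaled by the spike-in RNAs instead, the median of all genes moved to 1.06. Both pump genes then took a positive sign (Atp6v1g2 0.71 and Atp6v1d 0.78), still below that median. The spike-in share ran from 0.189% to 0.686% among control libraries alone. This scaling therefore cannot decide whether the falls are absolute or relative to other genes.

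Summed over their members, the balance between degradative genes and pump differed in the same direction in both tissues. In CA1 the luminal members summed to 3717 and 3824 CPM in KO libraries, against 3344, 3288 and 3430 CPM in control libraries, and the pump members to 4395 and 4424 CPM in KO libraries, against 4518, 4556 and 4511 CPM in control libraries. The first sum was higher and the second lower in KO, with no overlap. In neocortex the luminal members summed to 3956, 3881 and 4014 CPM in KO libraries, against 3828, 4134 and 3759 CPM in control libraries, which overlap. The pump members summed to 4783, 4555 and 4621 CPM in KO neocortex, against 4918, 5109 and 4901 CPM in control neocortex, with every KO library lower. The ratio of the sums was 0.846 and 0.864 in KO CA1 against 0.740, 0.722 and 0.760 in control CA1, and 0.827, 0.852 and 0.869 in KO neocortex against 0.778, 0.809 and 0.767 in control neocortex. The KO and control ranges of the ratio did not overlap in either tissue. Sums weigh abundant genes most, and Psap alone makes up a large share of the luminal sum, so they say little of the low cathepsins.

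**Figure D4:**
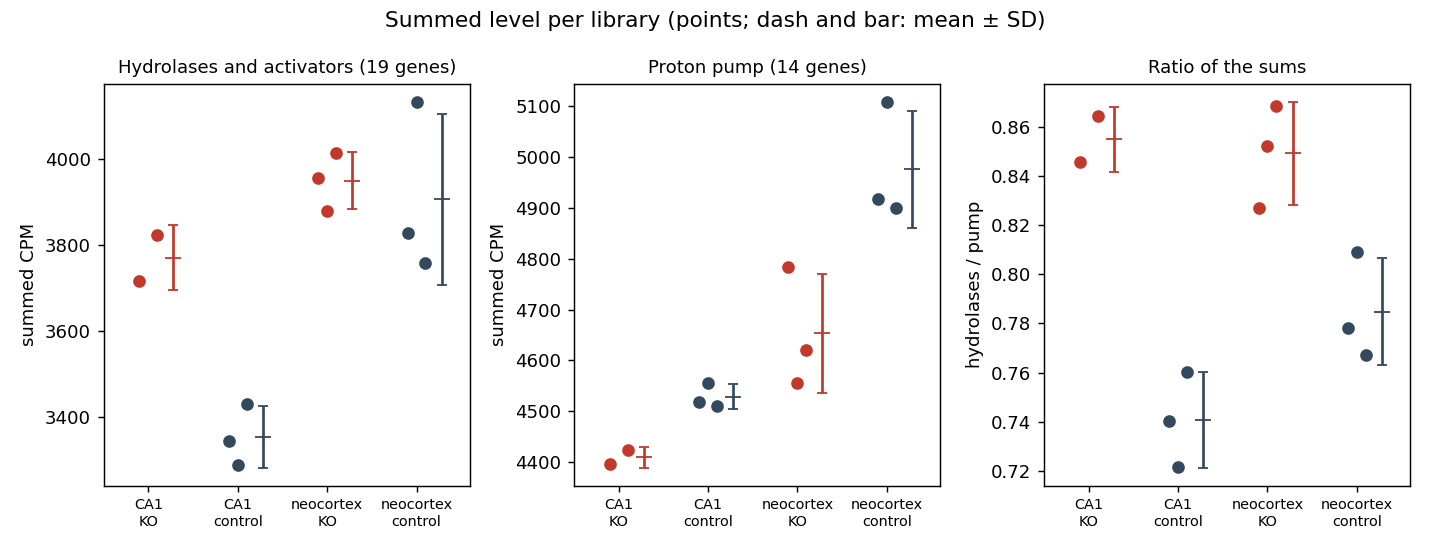
Summed CPM of the 19 luminal members (left), of the 14 pump members (middle) and the ratio of the 2 sums (right), by library (points) with group mean and SD (dash and bar), KO in red and control in blue; the axes do not start at 0. The ratio is 0.846 to 0.864 in KO CA1 and 0.827 to 0.869 in KO neocortex, above the controls of the same tissue.

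Whether the KO effect differed between CA1 and neocortex was tested in a fit of all 11 libraries. No member passed. An unadjusted p under 0.05 was found for 11 of 41, all with the more positive log2 fold change in CA1. They were 8 luminal, 1 membrane and 2 pump members. For the pump members Atp6v0b and Atp6v1g2 the effect was smaller in CA1 (0.012 and -0.099) than in neocortex (-0.191 and -0.305). Over all 19256 genes 0.0935% passed and 9.51% had an unadjusted p under 0.05. The smallest p belonged to Ctsd, whose log2 fold change was 0.31 larger in CA1 than in neocortex (SE 0.082, adjusted p = 0.199, edgeR), Ctss (0.43 larger, SE 0.12, adjusted p = 0.242) and Laptm5 (0.39 larger, SE 0.12, adjusted p = 0.304). On the other side stood Npc1 (-0.16, adjusted p = 0.655), Scarb2 (-0.18, adjusted p = 0.682) and Tpp1 (-0.074, adjusted p = 0.841). With no filter on low counts Ctss passed (0.40, adjusted p = 0.0278). Tissue goes with the library kit, so tissue and kit cannot be told apart in this difference, and 4 of the animals gave both tissues.

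The tissue is a mixture of cells, and in bulk RNA more cells of a type cannot be told apart from more RNA per cell. Markers of several types were therefore summed in the same libraries. The 15 genes of activated microglia, which include Cd68, itself a lysosomal membrane protein, summed to 1917 to 2085 CPM in KO CA1, against 1327 to 1434 CPM in control CA1, and to 1450 to 1669 CPM in KO neocortex, against 1218 to 1373 CPM in control neocortex; 10 of them rose in CA1 and 9 in neocortex. Most of these sums is Apoe, so they follow that gene more than the other markers. Apoe had 1619 and 1747 CPM in KO CA1, against 1133, 1173 and 1217 CPM in control CA1. In neocortex Apoe had 1234, 1313 and 1416 CPM in KO libraries, against 1069, 1191 and 1026 CPM in control libraries. There it did not pass (adjusted p = 0.0508, edgeR). The 12 genes of resting microglia summed to 310.6 to 361.1 CPM in KO CA1, against 282.0 to 299.1 CPM in control CA1, with 3 of 12 higher (Fcrls, Olfml3 and Csf1r), and to 377.4 to 411.4 CPM in KO neocortex, against 389.1 to 418.5 CPM in control neocortex, with 0 of 12 called by edgeR and 3 of 12 at an unadjusted p under 0.05.

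Sums of several other cell types differed as well. Border macrophage markers, with 3 of 4 tested genes higher, summed to 13.4 to 13.8 CPM in KO CA1, against 4.28 to 6.51 CPM in control CA1, and the 5 meningeal genes, with 1 higher, to 81.8 to 87.2 CPM in KO CA1, against 39.3 to 53.3 CPM in control CA1. The 6 astrocyte genes summed to 2016 to 2237 CPM in KO CA1, against 1589 to 1674 CPM in control CA1, with 2 of 6 higher (Gfap and Aqp4). Much of this difference is Gfap, with means of 710 CPM in KO CA1 and 364.2 CPM in control CA1. Slc1a2 and Aldh1l1 overlapped between the groups. All 6 oligodendrocyte genes fell, and summed to 2804 to 2819 CPM in KO CA1, against 3387 to 4113 CPM in control CA1, and the 4 genes of CA1 pyramidal neurons summed to 309.9 to 325.5 CPM in KO CA1, against 462.3 to 509.5 CPM in control CA1, with Wfs1 and Pou3f1 lower. The 8 general neuron genes, none of which was called by edgeR in either tissue (3 in CA1 and 5 in neocortex at an unadjusted p under 0.05), summed to 7944 to 8147 CPM in KO CA1, against 8225 to 8850 CPM in control CA1, and to 8064 to 8576 CPM in KO neocortex, against 8556 to 8819 CPM in control neocortex. In neocortex, astrocyte genes summed to 1501 to 1707 CPM in KO libraries, against 1290 to 1438 CPM in control libraries, with 0 of 6 called by edgeR and 3 of 6 at an unadjusted p under 0.05. The CA1 pyramidal genes summed to 176.5 to 191.2 CPM in KO neocortex, against 215.7 to 246.8 CPM in control neocortex. This sum mainly follows Wfs1 (means 74.8 CPM in KO and 112 CPM in control), the only one called. Fibcd1 (log2 fold change 0.107), Mpped1 (0.04) and Pou3f1 (-0.325) overlapped between groups. The 4 endothelial genes summed to 125.3 to 131.0 CPM in KO neocortex, against 135.6 to 143.2 CPM in control neocortex. Of these, 0 were called by edgeR and 1 had an unadjusted p under 0.05, against 18% of all genes. In CA1 their sums overlapped, at 109.3 to 111.9 CPM in KO and 96.8 to 109.8 CPM in control libraries. There Pecam1 was higher (log2 fold change 0.42, adjusted p = 0.0387, edgeR). Oligodendrocyte, general neuron, meningeal and border macrophage sums overlapped between KO and control neocortex. Of the 5 neuron genes at an unadjusted p under 0.05 there, Syt1 was higher in KO (log2 fold change 0.18). No marker of these lists was at 0 in all libraries. The part of these cell types in the lysosomal differences was not tested.

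**Figure D5:**
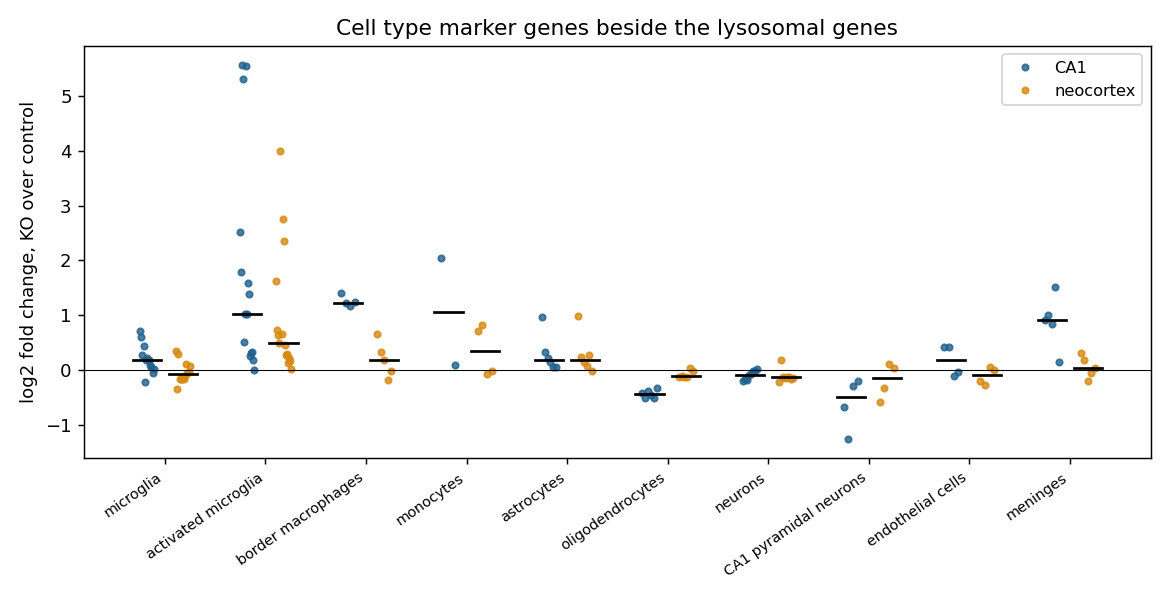
Log2 fold change of KO over control for each tested marker gene (points) of 10 cell types in CA1 (blue) and neocortex (orange), with the median of each list as a black bar. Activated microglia genes lie above 0 in both tissues, and all 6 oligodendrocyte genes lie below 0 in CA1.

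The promoter strings and miRNA sites shown above were counted among the members that passed and those that did not. Of the 13 members that rose in CA1, 12 had a promoter window and 2 of these held CACGTG (Ctsd and Ctsa). Among members that did not pass, 9 of the 23 with a window held it. Ctss, Ctsz, Grn, Laptm5 and Cd63 held neither string in their window. An 8mer site of the 8 families was present in 2 of the 13 that rose (Npc2 and Ctsc) and in 7 of the 28 that did not pass. In neocortex CACGTG was held by 1 of the 2 members that rose (Ctsd) and 0 of the 2 that fell. Among neocortex members that did not pass, 10 of the 31 with a window held it. Neither of the neocortex members that rose held a site, and both that fell did (Atp6v1g2 and Atp6v1d), the sites of Atp6v1d lying beyond the end of the gene in the deposited annotation. These are descriptions of the listed windows, with no test.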

How the data were processed

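The deposited table holds raw counts for 11 libraries, 1 row per Ensembl gene, with no normalization. GSNAP, SAMtools, bedtools and FastQC and the build GRCm38 are named, per the submitters' processing notes; versions, counting rule and strand setting are not given in the sources used here. Per the labels' protocols, neocortex libraries were stranded and carried ERCC spike-ins, and CA1 libraries were unstranded.

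Symbols and exon lengths came from GENCODE M21 (37607 of 39017 identifiers matched, 96.4%), and promoter and miRNA sequences from RefSeq GRCm38.p6. Each tissue was fitted alone by edgeR 4.0.16 under R 4.3.3, KO over control (TMM, filterByExpr, robust quasi-likelihood F-test, two-sided, Benjamini-Hochberg over all genes tested, threshold 0.05). The SE is the absolute log2 fold change divided by the square root of F, and CPM uses TMM-scaled library sizes. DESeq2 1.42.0 was an alternative. The code was tested on simulated data. P-values measure the spread between animals.

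The members and lists were chosen with earlier results of these data known. Dicer1, called members (up to 10 per tissue in full) and the pump subunit with the smallest p are named with their values; of other lists, up to 4 genes by smallest p. A gene that this rule takes is not reported here by name, and counts include it. Members named beyond this, such as Psap, Ctsb and Atp6v1a, and the markers named were chosen after their values were seen.

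No libraries of a group were copies (chi-square per gene 9.99 to 22.1, where copies give about 1). The labels give 4 animals for both tissues, whose deviations from the group mean correlated across genes at r of 0.184 to 0.365, so animal was an alternative block. ERCC sets were read from the spike-in RNAs of 6 libraries.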

Additional observations from a re-analysis of the deposited data

How the results depend on the processing

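Each comparison was repeated with DESeq2 size factors, with the DESeq2 test, with no filter on low counts, in a joint fit of 11 libraries and without each library in turn; the neocortex also with the ERCC set as a batch term, with scaling by ERCC RNAs and, chosen after seeing the data, in each ERCC set alone. Where 1 library remained in an arm, it was assumed to vary like the others. In neocortex, members higher in KO numbered 2, against 6 with DESeq2, 5 with no filter, 1 with the batch term, 0 with ERCC scaling, 0 in each ERCC set alone and 0 to 4 without single libraries. Members lower in KO numbered 2, against 3 with DESeq2, 1 with the batch term, 0 with ERCC scaling, 0 in each set alone and 0 to 2 without single libraries. Calls over all neocortex genes moved as well, from 256 higher and 204 lower in the main fit. They numbered 481 and 432 with DESeq2, 396 and 374 with no filter, and 16 and 3 without D5133. The neocortex median log2 fold change of the luminal members was 1.15 with ERCC scaling and 0.055 to 0.18 without single libraries. That of the pump was 0.89 with ERCC scaling, -0.083 in the set of D5129, D5130 and D5132 alone and -0.15 to -0.10 without single libraries. With ERCC scaling Atp6v1g2 was at 0.71 and Atp6v1d at 0.78, beside a median of all genes of 1.06; in that scaling all libraries depend on spike-in reads that made up 0.113% to 0.686% of their totals. In CA1, 13 members were higher in KO, against 12 with DESeq2 size factors, 13 with the DESeq2 test, with no filter and in the joint fit, and 3 to 11 without single libraries; the CA1 pump median was -0.059 to -0.039 without single libraries. With no filter the difference between tissues passed for 1 member. With animal as a replicate block, which pairs the tissues, 0 members passed, and it changed no call. KO and control come from different animals, so no pairing exists within a tissue. The cause of these shifts was not tested. With 2 or 3 libraries a group, SEs of the members were 0.044 to 0.17 on the log2 scale, which limits what small differences can pass.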

Other observations

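A few lysosomal genes outside the 41 also passed the test. Of 33 tested other hydrolases and activators, 2 rose in CA1, among them Ctse, an aspartic protease, with 2.31 and 2.51 CPM in KO CA1 against 0.151, 0.182 and 0.171 CPM in control CA1 (log2 fold change 3.80, adjusted p = 9.08e-05, edgeR). In neocortex 1 of 33 rose, again Ctse (log2 fold change 2.28, adjusted p = 0.0435). Of 22 tested other membrane proteins, 3 rose in CA1: Cd68 (log2 fold change 1.02), the peptide transporter Slc15a3 (0.79) and the channel Tpcn1 (0.30). In neocortex Cd68 (0.72) and Slc15a3 (1.05) rose. Among 14 tested further pump subunits and assembly factors none passed in CA1 with edgeR (4 had an unadjusted p under 0.05), and 1 fell in neocortex, Rnasek (log2 fold change -0.28, adjusted p = 0.0443).

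Genes around the inputs and brakes of the system were mixed. Among 19 tested genes of the TFEB family and its control, the calcineurin subunits Ppp3r1 and Ppp3cb fell in both tissues, by 0.31 and 0.22 on the log2 scale in CA1 and by 0.23 and 0.20 in neocortex; calcineurin removes phosphate from TFEB. Igf2r, the receptor that carries mannose-6-phosphate-tagged hydrolases to the lysosome, rose in CA1 (log2 fold change 0.30, adjusted p = 0.0376) and in neocortex (0.35, adjusted p = 0.0165), and the sorting receptor Sorl1 rose in neocortex (0.36, adjusted p = 0.0365). Of 4 cystatins, inhibitors of cysteine cathepsins or their relatives, Cst7 rose in both tissues, with 2.63 and 3.78 CPM in KO CA1 against 0, 0.121 and 0.0568 CPM in control CA1, and Cst3 rose in CA1 (log2 fold change 0.27, adjusted p = 0.0165). Cst7 is also among the activated microglia genes.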
